A study of Mus musculus with 13 samples.

Results

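The AP-2 family of the mouse consists of 5 transcription factor genes, *Tfap2a*, *Tfap2b*, *Tfap2c*, *Tfap2d* and *Tfap2e*, and their rows were taken by symbol from counts of 49315 genes in skin. Total RNA of whole skin was sequenced at postnatal day 4 (P4) from 3 mice labelled WT and 3 mice labelled DKO, with 1 library per mouse. DKO mice carried the K14Cre transgene and floxed alleles of both *Kctd1* and *Kctd15* (*K14Cre+Kctd1fl/flKctd15fl/fl*), and WT mice were littermates whose alleles at these loci the labels do not give further. K14Cre recombines in keratinocytes, so that fibroblasts, pigment cells, vessels, nerves and muscle of the skin lie outside its reach. The comparison asks how messages of the AP-2 family and of genes around it stood in skin after KCTD1 and KCTD15 were inactivated in keratinocytes.

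AP-2 factors bind a GC-rich palindrome as dimers, through a helix-span-helix domain and a basic region that are shared across the family. They act early in the ectoderm, the neural crest and the limb, and in the epidermis they take part in keratinocyte commitment and differentiation together with p63. KCTD1 and KCTD15 are BTB domain proteins that bind AP-2 factors and repress their transactivation, whereas CITED proteins with p300 and CBP act as coactivators.

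The 5 genes lie at 4 places in the genome (GRCm38). *Tfap2a*, which encodes AP-2α, is on the reverse strand of chromosome 13 (40715675 to 40733823), with 3243 bp of counted exons. *Tfap2b*, which encodes AP-2β, lies on the forward strand of chromosome 1 (19208914 to 19238576, 6338 bp of exons), near *Tfap2d*, which encodes AP-2δ (19103022 to 19166346, 1954 bp). *Tfap2c*, which encodes AP-2γ, is on the forward strand of chromosome 2 (172549593 to 172558622, 3679 bp), and *Tfap2e*, which encodes AP-2ε, on the reverse strand of chromosome 4 (126716006 to 126736240, 2085 bp). Over the coding sequences of the longest coding transcripts, *Tfap2a* and *Tfap2b* were the most alike, with 67.9% identical bases over 1289 aligned bases, and *Tfap2c* and *Tfap2d* the least, with 52.2% over 1225.

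The stretch of 60 coding bases with the most bases common to the whole family follows, so that the members can be told apart by eye. Capitals mark the 40 bases that are the same in all 5 genes, and in each gene an exon boundary falls after base 44 of the stretch, so the coordinates span an intron.
Tfap2a, coding bases 808 to 867, chr13:40721372-40723134, reverse strand: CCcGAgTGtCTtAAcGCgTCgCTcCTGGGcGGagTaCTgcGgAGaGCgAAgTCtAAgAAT
Tfap2b, coding bases 778 to 837, chr1:19226612-19228457, forward strand: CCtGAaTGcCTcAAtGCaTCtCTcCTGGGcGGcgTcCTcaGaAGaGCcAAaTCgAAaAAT
Tfap2c, coding bases 949 to 1008, chr2:172553589-172554056, forward strand: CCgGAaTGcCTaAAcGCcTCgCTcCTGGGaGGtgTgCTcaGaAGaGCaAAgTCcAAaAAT
Tfap2d, coding bases 721 to 780, chr1:19118952-19119177, forward strand: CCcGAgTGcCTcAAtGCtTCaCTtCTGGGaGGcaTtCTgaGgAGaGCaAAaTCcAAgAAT
Tfap2e, coding bases 742 to 801, chr4:126720589-126721898, reverse strand: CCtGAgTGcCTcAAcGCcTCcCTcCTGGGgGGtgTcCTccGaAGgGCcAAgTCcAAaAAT
Even in this stretch the members differed at scattered bases. No run of 31 bases was found in the annotated transcripts of more than 1 member. Of sequences of 20 bases, taken at every position, 14 were shared between *Tfap2a* and *Tfap2b*, 5 between *Tfap2c* and *Tfap2e* and 2 between *Tfap2a* and *Tfap2c*. Such sequences can overlap, so they need not be separate runs. A gene on the opposite strand, *Gm26688*, overlaps *Tfap2a*. It held 164 to 253 counts per library against 2402 to 5547 for *Tfap2a*, and whether the counting used the strand is not given in the sources used here.

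The 6 P4 libraries held between 11263863 and 17643043 counts on genes. A count of 3, taken as the floor, corresponds to 0.17 to 0.266 CPM (counts scaled to library size), and this floor covers counting error only. All 8 markers of basal keratinocytes and all 9 of suprabasal keratinocytes reached 10 normalized counts in at least 1 library. A normalized count is a count divided by the TMM-scaled size of its library and multiplied by the mean of these sizes. Marker sums of skeletal muscle were higher in DKO (160300 to 338700 normalized counts) than in WT (98480 to 113000), with DKO replicate 1 the highest. Marker sums of the hair follicle were lower in DKO (75590 to 189600) than in WT (191300 to 215700), as were those of the sebaceous gland (12360 to 23390 against 33330 to 39180). *Tchh*, *Krt71* and *Krt25* were a large part of the hair follicle sum, with means of 77250, 57320 and 31060 in WT. Of the 12 hair follicle markers, 11 were lower and 1 was higher in DKO. Groups did not overlap for 3 of the 12, all with DKO lower, against 5.96% of all genes tested. In bulk skin, fewer cells of a type and less RNA per cell cannot be told apart.

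The targeted genes were read first. *Kctd15* held 736, 737 and 763 normalized counts in WT and 1131, 1509 and 1325 in DKO, so every DKO library was above every WT library. *Kctd1* held 443, 410 and 442 in WT and 506, 985 and 735 in DKO, again without overlap. Counts over a whole gene do not tell messages with the floxed part from messages without it, so they do not check the labels, and each direction given here rests on the labels WT and DKO.

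Of the 5 AP-2 genes, 4 were expressed in P4 skin and 1 was near the floor. Levels between genes were compared as CPM per kb of counted exons. *Tfap2a* stood at 85.2, 95.6 and 82.0 CPM per kb in WT and 64.1, 122 and 86.4 in DKO, above 98.3% of the 20168 genes tested. DKO replicate 1 was the lowest of the 6 libraries and DKO replicate 2 the highest, so the WT values lay inside the DKO range. *Tfap2b* stood at 20.2, 22.8 and 23.7 CPM per kb in WT and 17.8, 22.9 and 22.2 in DKO, above 88.8% of genes, with overlapping groups. *Tfap2c* stood at 11.6, 11.7 and 12.9 CPM per kb in WT and 8.50 (replicate 1) to 11.6 (replicate 2) in DKO, above 74.5% of genes. *Tfap2e* stood at 5.02, 5.58 and 4.60 CPM per kb in WT and 4.49, 7.77 and 4.37 in DKO, above 54.2% of genes, with DKO replicate 2 above the other libraries. *Tfap2d*, known for its role in the midbrain and retina, had raw counts of 4, 0 and 1 in WT and 0, 1 and 0 in DKO and was too low for a test.

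The order *Tfap2a*, *Tfap2b*, *Tfap2c*, *Tfap2e* held in 6 of 6 libraries. Over the 6 libraries, the level per kb of *Tfap2a* was 4.08 times that of *Tfap2b* (geometric mean of ratios). The level of *Tfap2b* was 1.96 times that of *Tfap2c*, and the level of *Tfap2c* was 2.11 times that of *Tfap2e*. Without division by length the order was the same and the steps differed, with 1.06 in place of 2.03 on the log2 scale between *Tfap2a* and *Tfap2b*, 1.76 in place of 0.97 between *Tfap2b* and *Tfap2c* and 1.90 in place of 1.08 between *Tfap2c* and *Tfap2e*. Each of these 3 steps had p = 0.03125 in an exact two-sided sign-flip permutation test over the 6 libraries, WT and DKO together. This is the smallest p that 6 libraries can give, and it was 0.03125 after adjustment over the 3 steps. The order tested was taken from the same libraries, so p adds nothing to the order being the same in 6 of 6.

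**Figure D1:**
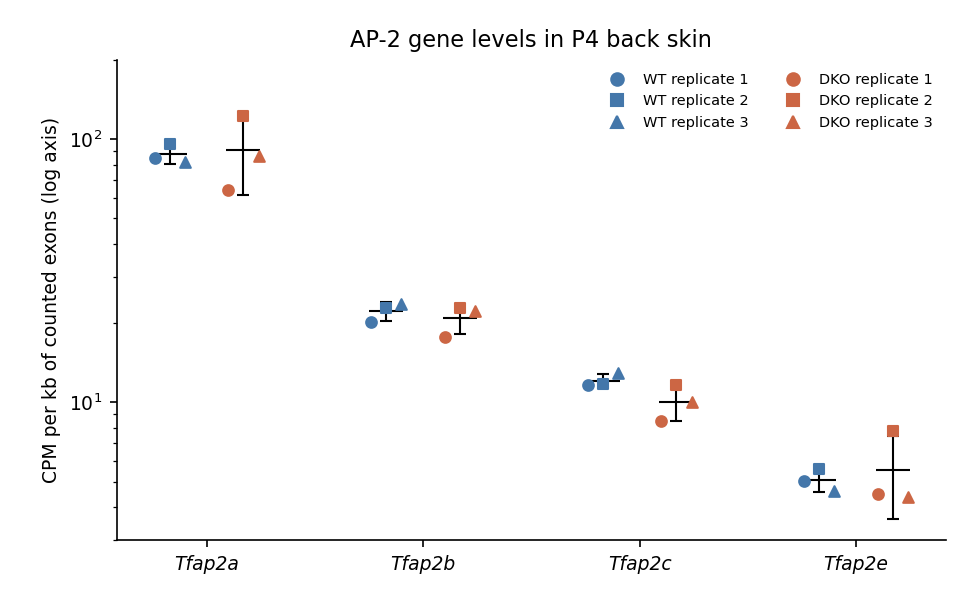
Levels of Tfap2a, Tfap2b, Tfap2c and Tfap2e in P4 back skin as CPM per kb of counted exons (log axis), with 1 point per library, WT in blue and DKO in orange, and the mean and SD of each group in black. The genes keep 1 order in all 6 libraries, the DKO points of Tfap2a and Tfap2e spread from below to above the WT points, and Tfap2d, near 0, is not drawn.

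Taken as shares of the summed level of the family, *Tfap2a* made up 69.7%, 70.5% and 66.6% in WT and 67.6%, 74.3% and 70.3% in DKO. *Tfap2b* made up 16.6%, 16.8% and 19.2% in WT and 18.7%, 13.9% and 18.0% in DKO. *Tfap2c* made up 9.53%, 8.64% and 10.5% in WT and 8.95%, 7.06% and 8.14% in DKO, and *Tfap2e* between 3.56% and 4.73% over all libraries. The groups overlapped for each gene. The mean share of *Tfap2a* was 68.9% ± 2.07 (SD, n = 3) in WT and 70.7% ± 3.36 (SD, n = 3) in DKO, a difference of 1.81 percentage points with p = 0.5 in an exact two-sided permutation test. The smallest p of the 4 genes was 0.2, for *Tfap2c*, at a difference of -1.49 points, and 3 mice against 3 cannot give a p below 0.1. The summed level of the family was 127 ± 7.53 CPM per kb in WT and 127.5 ± 35.1 in DKO (SD, n = 3 each; exact permutation p = 0.9).

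In the comparison of DKO with WT by edgeR's quasi-likelihood test, 0 of the 4 AP-2 genes tested passed, which took an adjusted p under 0.05 with a log2 fold change beyond ±1, where 14 of 20168 genes, or 0.0694%, passed in all. At an unadjusted p under 0.05 the count of AP-2 genes was also 0, against 7.5% of all genes tested, and DESeq2, which called 0.783% of its genes, called 0 AP-2 genes as well. *Tfap2a* had 4313 ± 351 normalized counts in WT and 4476 ± 1444 in DKO (SD, n = 3 each), with a log2 fold change (DKO minus WT) of 0.05 (SE 0.209, 95% interval -0.41 to 0.52, adjusted p = 0.978). *Tfap2b* had 2140 ± 173 and 2016 ± 267, with a log2 fold change of -0.09 (SE 0.137, 95% interval -0.39 to 0.22, adjusted p = 0.953). *Tfap2e* had 160 ± 15.6 and 175 ± 61.1, with 0.13 (SE 0.243, 95% interval -0.41 to 0.68, adjusted p = 0.960). For these 3 genes the differences were smaller than the spread between DKO mice. Without DKO replicate 2 the log2 fold change was -0.21 for *Tfap2a* and -0.19 for *Tfap2e*, without WT replicate 3 it was -0.01 for *Tfap2a*, and without DKO replicate 1 it was 0.0049 for *Tfap2b*, each of the opposite sign. The intervals of all 4 tested members lay inside a log2 fold change of ±1, which is a 2-fold rise or fall.

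*Tfap2c* was the member whose groups did not overlap. Its normalized counts were 650, 655 and 720 in WT and 475, 649 and 559 in DKO, with the highest DKO library 649 just under the lowest WT library 650. The log2 fold change was -0.27 (SE 0.151, 95% interval -0.61 to 0.07), with an unadjusted p of 0.108 and an adjusted p of 0.798 in edgeR's test. Groups that do not overlap with DKO lower were found for 5.96% of all genes tested, and for 1 of the 4 AP-2 genes. Marker sums of the hair follicle and the sebaceous gland, lower in every DKO library, moved the same way as *Tfap2c*, and their part in its value was not tested.

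**Figure D2:**
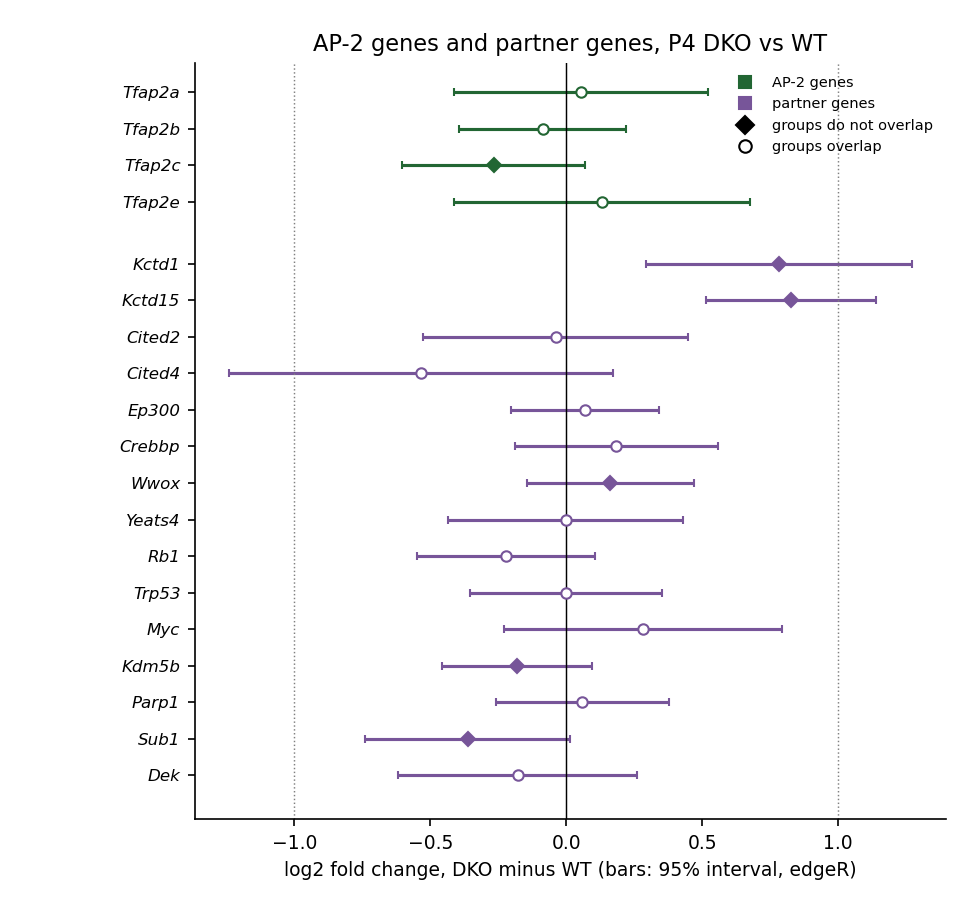
Log2 fold changes (DKO minus WT, edgeR) with 95% intervals for the 4 tested AP-2 genes in green and 15 of the partner genes in purple, with filled diamonds where the groups of 3 libraries do not overlap and dotted lines at -1 and 1. The intervals of the AP-2 genes all include 0 and those of Kctd1 (0.78) and Kctd15 (0.83) lie above it.

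Since DKO skin held more muscle message and differed in its hair follicle message, each AP-2 gene was also set against the keratinocytes. The log2 normalized count (pseudocount 1) was taken minus the mean log2 normalized count of 8 basal keratinocyte markers, so that a value states a difference within a library. For *Tfap2c* the values were -3.04, -3.10 and -3.01 in WT and -3.41, -3.41 and -3.30 in DKO. The groups stood further apart on this scale than as normalized counts, and the SD within a group was 0.0453 in WT and 0.0604 in DKO. The difference of the means was -0.32, with p = 0.1 in an exact two-sided permutation test, the smallest p this design allows, and 0.4 after adjustment over the 4 genes. Against suprabasal markers the difference for *Tfap2c* was -0.43. The marker sums were themselves higher in DKO, with log2 ratios of the means of 0.12 for basal and 0.39 for suprabasal markers. A difference on this scale therefore holds changes of the markers as well as of *Tfap2c*, and the wider gap is no separate evidence of a lower *Tfap2c* level. For *Tfap2a* the values were -0.36, -0.26 and -0.53 in WT and -0.68, -0.19 and -0.38 in DKO, with overlapping groups and a difference of -0.04 (exact permutation p = 0.9). For *Tfap2b* the difference was -0.13 (exact permutation p = 0.2) and for *Tfap2e* 0.04 (exact permutation p = 0.9), both with overlapping groups.

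The KCTD messages were set against the AP-2 messages in the same way, a comparison chosen after the values were seen. Per kb, *Kctd1* stood at 8.14, 7.53 and 8.12 CPM in WT and 9.30, 18.1 and 13.5 in DKO. *Kctd15* stood at 11.4, 11.5 and 11.9 CPM per kb in WT and 17.6, 23.5 and 20.6 in DKO. The summed AP-2 level was 6.24, 7.15 and 6.17 times the summed *Kctd1* and *Kctd15* level in WT and 3.53, 3.96 and 3.60 times in DKO. The DKO ratios lay close together and all below the WT ratios, although the AP-2 sum itself ranged from 94.9 to 165 CPM per kb in DKO. The mean ratio was 6.52 ± 0.548 in WT and 3.70 ± 0.230 in DKO (SD, n = 3 each), with p = 0.1 in an exact two-sided permutation test, the smallest possible. The mean AP-2 sum was 127 CPM per kb in WT and 127.5 in DKO. The ratio and its p therefore restate the higher *Kctd1* and *Kctd15* counts given above and are no separate result. The KCTD messages counted in DKO skin can come from cells that kept the genes or from messages without the floxed part, and these cannot be told apart.

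**Figure D3:**
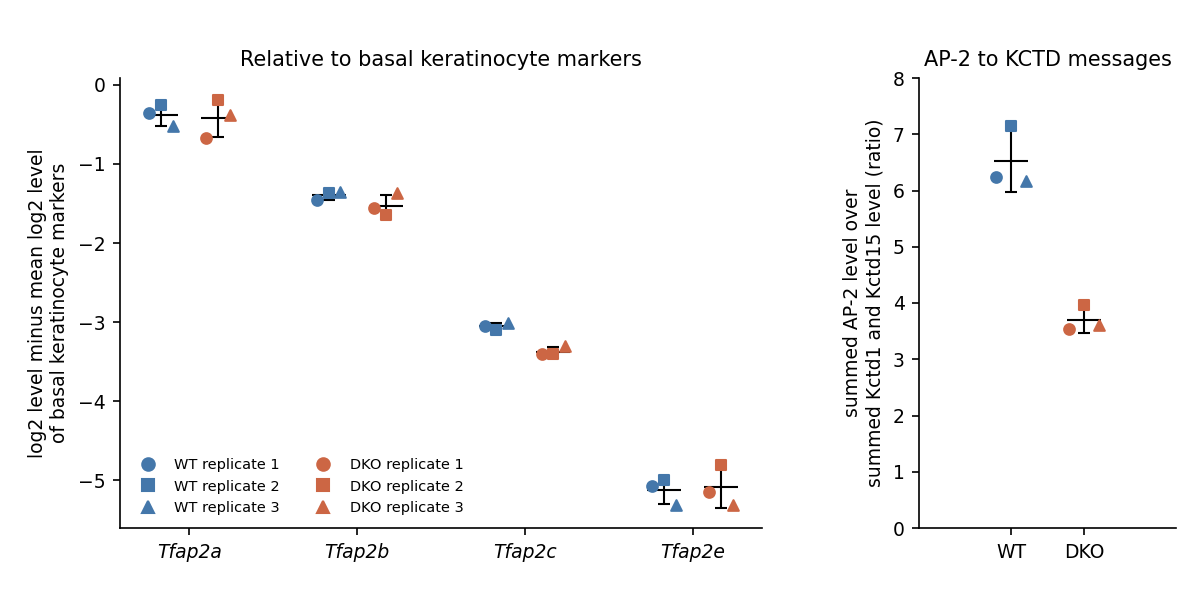
Left, log2 normalized count of each AP-2 gene minus the mean log2 normalized count of 8 basal keratinocyte markers, and right, the ratio of the summed AP-2 level to the summed Kctd1 and Kctd15 level per kb, with 1 point per library and the mean and SD of each group in black. The Tfap2c points of DKO (-3.41 to -3.30) lie below those of WT (-3.10 to -3.01), and the DKO ratios (3.53 to 3.96) lie below the WT ratios (6.17 to 7.15).

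The spread of the AP-2 genes among DKO mice was wide compared with that among WT mice. The coefficient of variation of *Tfap2a* was 8.14% in WT and 32.3% in DKO, and that of *Tfap2e* 9.73% and 34.8%. For *Tfap2b* it was 8.10% and 13.3%, and for *Tfap2c* 5.72% and 15.5%. DKO replicate 2 was the highest of the 3 DKO libraries for 4 of the 4 AP-2 genes and DKO replicate 1 the lowest for 3. Of all genes tested, 40.1% had DKO replicate 2 as the highest DKO library and 33.9% had DKO replicate 1 as the lowest, and 74.4% had a larger SD in DKO than in WT.

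The same spread was seen in a list of 21 other transcription factors of the epidermis and its appendages. DKO replicate 2 was the highest DKO library for 20 of them and DKO replicate 1 the lowest for 19. *Dlx3*, which acts in hair and skin differentiation, held 6944, 7577 and 6061 normalized counts in WT and 3714, 11090 and 6459 in DKO. The DKO values of *Dlx3* reached from below to above the WT range. Marker sums of basal keratinocytes followed the order too, with 53330, 79010 and 59840 normalized counts in DKO against 57390 to 60230 in WT. Skeletal muscle markers were the highest in DKO replicate 1 (338700), and the part of cell composition in the spread of the AP-2 genes was not tested.

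**Figure D4:**
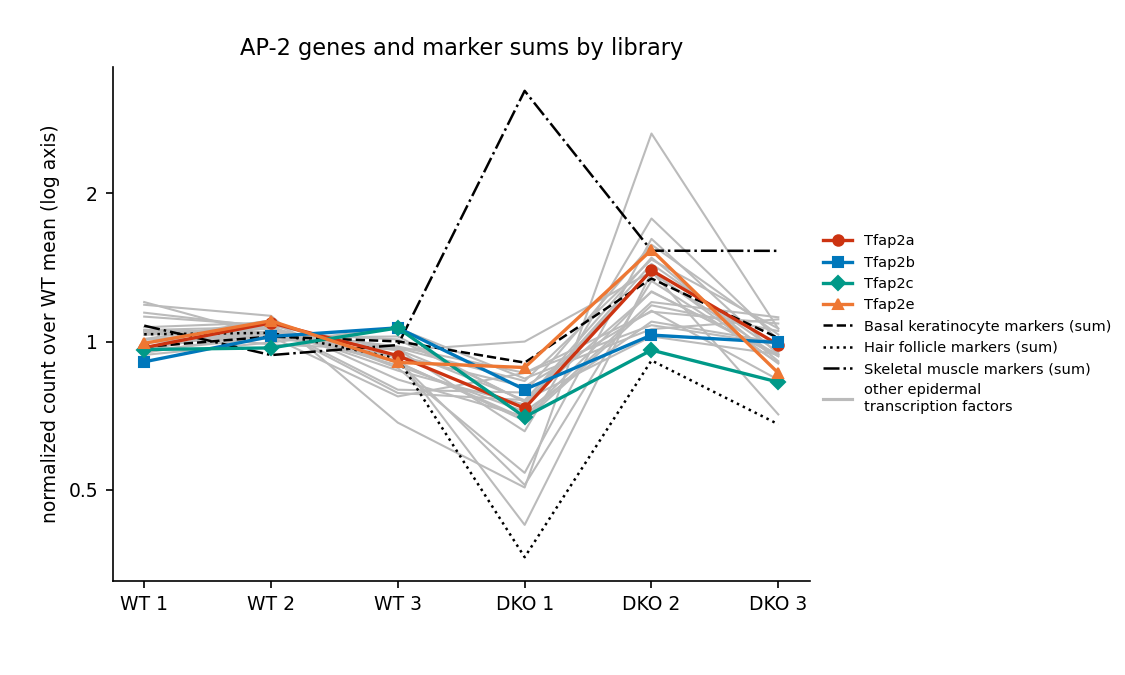
Normalized counts of the 4 AP-2 genes (colours), 21 other epidermal transcription factors (grey) and 3 marker sums (black) in each library, divided by the WT mean (log axis), with lines that only join the values of 1 gene or sum. The WT libraries lie close to 1, DKO replicate 1 lies low and DKO replicate 2 high for Tfap2a, and the muscle and hair follicle sums move in opposite directions in DKO replicate 1.

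In this list of epidermal transcription factors, 0 of 21 genes passed edgeR's test, 0 had an unadjusted p under 0.05 (background 7.5%), DESeq2 called 0, and 0 had groups that did not overlap, against 13.2% of all genes. The median log2 fold change of the list was 0.01, beside 0.02 for all genes tested. Of the factors with the highest counts, *Trp63*, which encodes the keratinocyte master regulator p63, had 7480 ± 469 normalized counts in WT and 7507 ± 1068 in DKO (SD, n = 3 each) and a log2 fold change of 0.01. Its sign turned under 7 of the 7 alternatives that kept all libraries, the lowest being -0.03 with total counts, so no direction is given. *Dlx3* had a log2 fold change of 0.05 and *Grhl1*, a grainyhead factor of the epidermal barrier, of -0.09. Among the factors with the smallest p-values were *Cebpb*, a regulator of keratinocyte differentiation (0.49), *Klf4*, a factor of barrier formation (0.16), *Cebpa* (0.13) and *Msx1*, a homeobox factor of ectodermal organs (0.18), and their adjusted p-values in edgeR's test were 0.928 or higher. Without DKO replicate 2 the log2 fold changes of *Cebpb* (-0.34), *Klf4* (-0.07), *Cebpa* (-0.07) and *Msx1* (-0.13) had the opposite sign.

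Among 16 genes whose proteins bind AP-2 factors, 0 passed the test by edgeR or DESeq2 and 2, both higher in DKO, had an unadjusted p under 0.05 (background 4.96% of all genes in that direction). These 2 were the targeted genes themselves, *Kctd15* with a log2 fold change of 0.83 (SE 0.140, adjusted p = 0.107 by edgeR) and *Kctd1* with 0.78 (SE 0.218, adjusted p = 0.342 by edgeR). The adjusted p of *Kctd15* was 0.000632 with DESeq2 and 0.00293 with edgeR without a filter on low counts, and that of *Kctd1* was 0.0783 and 0.0306. With these settings *Kctd15* stayed uncalled because its log2 fold change, 0.81 and 0.80, was under 1, and *Kctd1* without the filter because its was 0.76. Without DKO replicate 1, edgeR's adjusted p was 0.0173 for *Kctd15* and 0.0335 for *Kctd1*, at 0.91 and 0.98. Over all alternatives tried with edgeR and DESeq2, the adjusted p ranged from 0.000632 to 0.619 for *Kctd15* and from 0.0306 to 0.929 for *Kctd1*, and neither was called in any. The list had 7 genes higher and 9 lower, and its median log2 fold change was -0.0016, beside 0.02 for all genes tested.

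The groups overlapped for the CITED, p300 and CBP genes. *Cited2*, a CITED coactivator of AP-2, had 772, 930 and 753 normalized counts in WT and 580, 1087 and 721 in DKO (log2 fold change -0.04). *Cited4*, its paralog, had 479, 452 and 436 in WT and 170, 501 and 271 in DKO (-0.53, adjusted p = 0.816 by edgeR), and its log2 fold change was -1.03 without DKO replicate 2 and -0.26 without DKO replicate 1. The DKO values of both spread over the WT range, with DKO replicate 1 the lowest. *Ep300*, which encodes p300, had a log2 fold change of 0.07, and *Crebbp*, which encodes CBP, of 0.18.

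Groups did not overlap for 5 partners, 3 with DKO higher (background 7.24%) and 2 with DKO lower (background 5.96%), of which *Kctd1* and *Kctd15* were 2. *Sub1*, which encodes the coactivator PC4, had 802, 682 and 806 normalized counts in WT and 681, 466 and 635 in DKO (log2 fold change -0.36, adjusted p = 0.689 by edgeR). *Kdm5b*, which encodes a histone H3K4 demethylase, had 4619, 4596 and 4229 in WT and 3519, 4175 and 4172 in DKO (-0.18). *Wwox*, a WW domain protein that binds AP-2 factors in the cytoplasm, had 360, 379 and 370 in WT and 389, 398 and 453 in DKO (0.16). Overlapping groups were also found with log2 fold changes of -0.22 for *Rb1*, -0.18 for *Dek*, -0.0026 for *Yeats4*, -0.0006 for *Trp53*, 0.06 for *Parp1* and 0.28 for *Myc*.

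A list of 20 genes with AP-2 sites or a known response to AP-2 factors was read as the downstream side. Of these, 0 passed edgeR's test, DESeq2 called 0, and 5 had an unadjusted p under 0.05, 3 higher (background 4.96%) and 2 lower (background 2.54%). Groups did not overlap for 5 of the 20, 4 with DKO higher (background 7.24%) and 1 with DKO lower (background 5.96%). The list had 14 genes higher and 6 lower, and its median log2 fold change was 0.05, beside 0.02 for all genes tested, and -0.09 without DKO replicate 2. The list was not divided by the direction of the response to AP-2 factors, so these values give no direction of AP-2 activity. *Krt1*, the type II keratin of the suprabasal layers, held 25750, 25700 and 29330 normalized counts in WT and 46120, 54200 and 39450 in DKO. Every DKO library was above every WT library, with a log2 fold change of 0.79 (SE 0.162, adjusted p = 0.202 by edgeR). The adjusted p of *Krt1* was 0.000928 with DESeq2 and 0.00111 with edgeR without a filter on low counts, at log2 fold changes of 0.78 and 0.77, which are under the limit of 1 for a call. Over all alternatives tried it ranged from 0.000928 to 0.762 by edgeR or DESeq2. The summed suprabasal markers were higher in DKO (136600 to 164800) than in WT (112400 to 115500). *Krt1* is 1 of these 9 markers and a large part of the sum, with means of 26930 in WT and 46590 in DKO, so the sum is not separate from it. Of the 9 markers, 5 were higher and 4 lower in DKO.

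*Mmp2*, a gelatinase of stromal cells, held 2246, 2187 and 2274 normalized counts in WT and 2822, 3251 and 2655 in DKO (log2 fold change 0.38, adjusted p = 0.429 by edgeR). *Bcl2*, an inhibitor of apoptosis, held 710, 705 and 631 in WT and 989, 755 and 926 in DKO (0.38, adjusted p = 0.539 by edgeR). The DKO libraries were higher for both genes without overlap. Dermal fibroblast markers summed to 219400 to 269400 in WT and 250500 to 373900 in DKO, and their part in the value of *Mmp2* was not tested. *Arg1*, the arginase of the urea cycle, held 400, 416 and 335 in WT and 160, 270 and 303 in DKO (-0.64, adjusted p = 0.490 by edgeR), with DKO lower and no overlap. *Krt8*, a keratin of simple epithelia, was low, with 38.7, 41.6 and 14.5 in WT and 7.89, 15.4 and 2.99 in DKO (-1.85, adjusted p = 0.434 by edgeR), and its groups overlapped.

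*Krt5* and *Krt14*, keratins of the basal layer in both the target list and the basal markers, had overlapping groups. *Krt15*, a keratin among the 8 basal markers only, held 2278, 2428 and 3914 normalized counts in WT and 1897, 2139 and 1664 in DKO. Its groups did not overlap, with DKO lower (log2 fold change -0.60, adjusted p = 0.485 by edgeR, background 5.96%). Of the 8 basal markers, 7 were higher in DKO and 1, *Krt15*, was lower. *Krt5* held 18720, 20220 and 18870 normalized counts in WT and 16140, 27630 and 18540 in DKO (log2 fold change 0.11). *Krt14*, whose promoter drives the Cre transgene, held 9807, 9890 and 8837 in WT and 8931, 17850 and 10550 in DKO (0.39, adjusted p = 0.819 by edgeR). DKO replicate 2 was the highest library for both, and without it the log2 fold change was 0.04 for *Krt14* and -0.15 for *Krt5*.

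**Figure D5:**
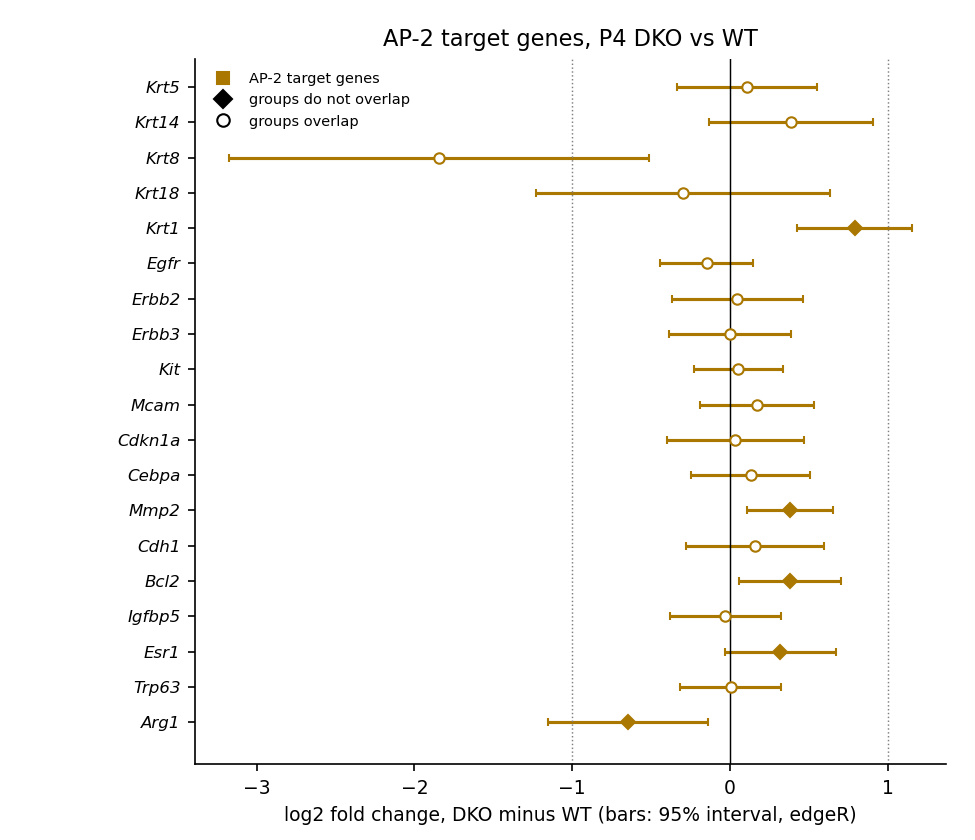
Log2 fold changes (DKO minus WT, edgeR) with 95% intervals for 19 of the AP-2 target genes, with filled diamonds where the groups do not overlap and dotted lines at -1 and 1. The intervals of Krt1, Mmp2 and Bcl2 lie above 0, those of Krt8 and Arg1 below it, and the other 14 include 0.

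Promoters were searched for the AP-2 consensus GCCNNNGGC, which reads the same on both strands. Windows of 300 bases were used, with most of the bases before a RefSeq transcription start (GRCm38.p6) and the rest after it. The motif was present in 16.6% of 32851 windows and for 18.5% of 27025 genes. It was found for 0 of the 4 AP-2 genes with a window. It was found for 6 of 13 target genes with a window (46.2%), 5 of 12 epidermal transcription factors (41.7%) and 2 of 11 partners (18.2%), the latter being *Crebbp* and *Kctd15*. The target list was drawn up in part by AP-2 sites, so its share is not independent of the motif. The lists are short, and the shares are given as descriptions. The motifs of *Kctd15*, the targeted gene with the smaller p, and of *Bcl2*, *Kit* and *Krt18* are shown with their surroundings to place the consensus in its sequence. Capitals mark the motif.
Kctd15, starting 167 bases before a start, chr7:34655658-34655686, reverse strand: ccgaaagcctGCCTTTGGCccgggagtcc
Kctd15, 228 bases before another start, chr7:34653142-34653170, reverse strand: agtcctgcagGCCCCTGGCactgctgcct
Kctd15, 213 bases before that start, chr7:34653127-34653155, reverse strand: tggcactgctGCCTCGGGCaagcgccctg
Kctd15, 200 bases before that start, chr7:34653114-34653142, reverse strand: tcgggcaagcGCCCTGGGCgtaagagctg
Bcl2, 245 bases before the start, chr1:106714517-106714540, reverse strand: cccagGCCAGCGGCcgcggccggg
Kit, 134 bases before a start, chr5:75574843-75574871, forward strand: cagcccgagaGCCCCGGGCactaggcagc
Krt18, 83 bases before the start, chr15:102028123-102028151, forward strand: cgatcctggcGCCCCCGGCtccggtggct
A window of *Kctd15* held 3 copies, where the most in any window was 5. A match in these letters does not show binding.

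Over the 12630 genes tested that had a window, those with the motif were set beside those without it, with no test. The median log2 fold change was 0.03 over 3459 genes with at least 1 motif and 0.02 over 9171 genes without one, and 56.2% and 52.6% of them had a value above 0. The median GC content of the windows was 66.7% with the motif and 59.0% without it, and the part of GC content in this difference was not tested. Genes with an unadjusted p under 0.05 and higher in DKO made up 6.48% and 4.98%, and those lower in DKO 2.46% and 2.65%.

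The genes most like each member over the 6 libraries were found by the Pearson correlation of log2 CPM, with no test, since 18621 genes were compared over 6 libraries that share the spread among DKO mice. Closest to *Tfap2a* were *4930579G18Rik* (r = 0.999), *Cc2d1a* (r = 0.998) and *Itga3* (r = 0.998), the last of which encodes the α3 integrin chain of basal keratinocytes, and 349 genes had r over 0.95. Closest to *Tfap2b* were *Ten1* (r = 0.990), *Gm38252* (r = 0.985) and *Gstt2* (r = 0.982), and 30 genes had r over 0.95. Closest to *Tfap2c* were *Fut2* (r = 0.995), which encodes a fucosyltransferase, *Bhlha9* (r = 0.993), which encodes a basic helix-loop-helix factor, and *Fbxo34* (r = 0.991), and 80 genes had r over 0.95. Closest to *Tfap2e* were *Phf13* (r = 0.998), *Dync1h1* (r = 0.996), which encodes the dynein heavy chain, and *Edc4* (r = 0.994), and 269 genes had r over 0.95. Among the members, the correlation was highest between *Tfap2a* and *Tfap2e* (r = 0.868) and between *Tfap2b* and *Tfap2c* (r = 0.818), and lowest between *Tfap2b* and *Tfap2e* (r = 0.367).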

How the data were processed

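RNA-Seq of 13 mouse libraries was read, 6 of P4 whole skin and 7 of epidermis at 3 weeks. Reads were trimmed (Trimmomatic 0.36), aligned to GRCm38 (STAR 2.5.2b) and assigned to genes (featureCounts in Subread 1.5.2) by the authors, who deposited raw counts per gene. In the files used here every gene has a count of 0 in the 7 epidermis libraries, which were not analysed. Symbols from a reference gene table were found for 99.3% of genes.

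Counts were analysed with edgeR 4.0.16 in R 4.3.3. Genes were kept by filterByExpr (20168), normalized with TMM and tested for DKO against WT by quasi-likelihood, and p-values were adjusted after Benjamini and Hochberg over all genes tested. A gene was called at an adjusted p under 0.05 with a log2 fold change beyond ±1. DESeq2 1.42.0, which the study used, was an alternative. Tested on simulated counts, edgeR found all 200 genes that had been changed by 2 on the log2 scale and made 5 other calls among 20179. DESeq2 found 198 and made 0 other calls. The simulation gave all genes the same dispersion in both groups, so it does not tell how smaller changes, or a wider spread in DKO, would be found. Single values were compared with exact permutation tests run in Python 3.11.15 with NumPy 2.4.6, and coding sequences of GENCODE M21 were aligned with MAFFT 7.526. P-values of DKO against WT set the difference between the groups against the spread between mice. Those of the level order compare genes within the libraries of both groups.

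The members and lists were chosen with earlier results of these data known. Every AP-2 gene and partner was named, and of the target and transcription factor lists the 5 genes with the smallest p-values and the 3 with the highest counts. For each AP-2 gene, the 3 genes with the highest r were named. Values of 2 genes of these lists are not reported here, although the genes count in the lists' totals. Promoter windows came from RefSeq, and 4 of the 5 AP-2 genes had one. Kit and Krt18, outside this rule, are shown for their motif and were chosen after their values were seen. Krt15, also outside this rule, is shown because its groups did not overlap, unlike those of Krt5 and Krt14. Alternatives were other normalizations, filters, a block on the number shared in the labels and each replicate left out.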

Additional observations from a re-analysis of the deposited data

How the results depend on the processing

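0 genes of the AP-2 family, the partners, the targets and the epidermal transcription factors were called under each of the 7 alternatives that kept all libraries and with each replicate left out, while the count over all genes went from 14 to 210 without a filter on low counts. With a replicate block on the number that the labels share between WT and DKO mice, 35 genes were called in all and 0 in the 4 lists. The labels do not say what the number marks, the deviations of same-numbered libraries from their group means correlated between -0.019 and 0.23 while those of libraries with different numbers correlated between -0.152 and -0.104, and DKO replicate 1 was the only DKO library of its number.

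*Trp63* had a log2 fold change of -0.0064 with DESeq2, -0.0057 with RLE size factors, -0.034 with total counts, -0.018 without a filter, -0.0078 with at least 10 counts in every library, -0.0096 without skeletal muscle markers in the library size and -0.0029 with the replicate block. *Dlx3* had -0.017 with total counts and -0.050 with the block. *Tfap2e* relative to keratinocytes was -0.07 against suprabasal markers and -0.02 against basal and suprabasal markers together. The cause was not tested.

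With each replicate left out, log2 fold changes ranged from -0.21 to 0.23 for *Tfap2a*, -0.16 to 0.0049 for *Tfap2b*, -0.19 to 0.28 for *Tfap2e* and, without a change of sign, -0.38 to -0.18 for *Tfap2c*. They ranged from -0.33 to 0.12 for *Cited2*, -1.03 to -0.26 for *Cited4*, -0.48 to -0.21 for *Sub1*, -0.016 to 0.11 for *Ep300*, -0.00093 to 0.30 for *Crebbp*, -0.16 to 0.10 for *Yeats4*, -0.18 to 0.096 for *Trp53*, -0.032 to 0.48 for *Myc*, -0.017 to 0.16 for *Parp1* and -0.34 to 0.036 for *Dek*. For *Krt5* the range was -0.15 to 0.24, for *Krt14* 0.039 to 0.56, for *Cebpb* -0.34 to 0.87, for *Klf4* -0.073 to 0.32, for *Cebpa* -0.069 to 0.26, for *Msx1* -0.13 to 0.36, for *Trp63* -0.072 to 0.10, for *Dlx3* -0.43 to 0.34 and for *Grhl1* -0.22 to 0.051. The difference in the share of *Tfap2b* ranged from -1.55 to 0.853 percentage points. Relative to basal keratinocyte markers, the difference ranged from -0.15 to 0.095 for *Tfap2a*, -0.10 to 0.15 for *Tfap2e* and -0.35 to -0.30 for *Tfap2c*. The log2 steps of the level order ranged from 1.95 to 2.07 (*Tfap2a* over *Tfap2b*), 0.94 to 1.01 (*Tfap2b* over *Tfap2c*) and 1.00 to 1.18 (*Tfap2c* over *Tfap2e*). Each step had p = 0.0625 in the exact permutation test, the smallest that 5 libraries can give. The family shares with coding length in place of exon length, and the ratio to the KCTD messages, were added after seeing the data, and none changed direction with settings that kept all libraries. Shares by protein length were not run.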
